A study of Homo sapiens with 41 samples.

Results

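Gold nanoparticles shaped as spheres were compared with gold nanoparticles shaped as stars in the endothelial layer of a cultured alveolus. The comparison takes the 3 basolateral libraries exposed to spheres with the number 1000 in the title and the 3 exposed to stars with the same number, 6 of the 41 libraries of the series, chosen by title alone. The unit of the number is not given in the labels, so that spheres and stars of number 1000 need not carry equal mass, surface or particle count. In the layered model, A549 cells (a lung adenocarcinoma line) and differentiated THP1 cells (a monocytic leukaemia line) formed the apical layer at the air-liquid interface, and the submerged basolateral layer held the line labelled EA.hy296. Exposure lasted 24 h. Untreated basolateral cultures, and basolateral cultures with spheres or stars of number 500, served as reference, with 3 libraries each except for spheres 500, which had replicates 1 and 3. Basolateral cultures with rods of number 1000 or 500, 3 libraries each, enter where all basolateral libraries are used. Apical libraries of untreated cultures, spheres 1000 and stars 1000, 3 each, are used where the apical layer is named. EA.hy296 is spelled as in the labels. A widely used line of similar name, EA.hy926, is a fusion of umbilical vein endothelial cells with A549 cells, and whether that line is meant is not stated.

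Total RNA was sequenced and the deposited values are read counts per gene. The 6 libraries held 2751299 to 10071599 counts and 15215 to 17909 genes with reads. Spheres replicate 2 was the shallowest, and 3 counts, the limit that a count of 0 allows, came to 1.09 CPM (counts scaled to a library total of 1e+06) there against 0.298 CPM in the deepest library. These limits cover counting error only. Endothelial identity genes were present in all 6 libraries. CDH5, the cadherin of endothelial junctions, stood at 781, 811 and 1069.9 CPM with spheres and at 948, 808 and 1014 CPM with stars, against 4.35 CPM on average in the untreated apical cultures. VWF, the clotting factor carrier made by endothelial cells, stood at 88.1 to 344 CPM. RAMP2 was at 0 in all 6 libraries, EMCN was at or near 0, and PECAM1 was not analysed here.

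The interferon response had the highest median difference of the pathway lists in this comparison. Type I interferons bind the receptor IFNAR1 and IFNAR2, whose kinases JAK1 and TYK2 activate the factor ISGF3, of which STAT2 and IRF9 are subunits. ISGF3 binds interferon-stimulated response elements in the promoters of antiviral genes. The products of these genes sense, bind or degrade foreign nucleic acid, and some feed back on the pathway. Endothelial cells respond to interferon and express many of these genes at a low tonic level.

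The element can be read in the promoters of members of the list. The 4 members shown are those with the smallest unadjusted p among list members whose upstream sequence holds the core letters GAAANNGAAA on either strand within the last 200 bases. RefSeq promoter sequences (GRCh38.p14) were matched by symbol for 23 of the 30 list members, and the 250 bases before the start held the letters in 16 of these 23, against 3.71% of all 27305 genes in the table; where a gene had several entries, a match in any of them was counted. Each line gives the 200 bases before the annotated start, 5′ to 3′ on the gene's strand, with every match to the letters or to their reverse complement in capitals; overlapping matches run together.

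IFIT1 (chr10:89392423-89392622, plus strand): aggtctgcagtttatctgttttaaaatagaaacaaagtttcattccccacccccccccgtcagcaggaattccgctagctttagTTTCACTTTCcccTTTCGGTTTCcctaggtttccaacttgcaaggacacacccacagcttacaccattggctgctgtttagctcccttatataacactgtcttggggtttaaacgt

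IFI44L (chr1:78620248-78620447, plus strand): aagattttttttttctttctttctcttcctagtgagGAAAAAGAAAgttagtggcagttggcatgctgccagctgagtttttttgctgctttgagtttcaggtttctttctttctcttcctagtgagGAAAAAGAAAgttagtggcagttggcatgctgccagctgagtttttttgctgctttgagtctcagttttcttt

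IFI44 (chr1:78649589-78649788, plus strand): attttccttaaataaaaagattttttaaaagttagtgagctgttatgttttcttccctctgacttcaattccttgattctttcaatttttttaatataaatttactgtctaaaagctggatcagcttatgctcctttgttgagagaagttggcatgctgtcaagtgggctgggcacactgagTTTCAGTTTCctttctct

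BST2 (chr19:17405631-17405830, minus strand): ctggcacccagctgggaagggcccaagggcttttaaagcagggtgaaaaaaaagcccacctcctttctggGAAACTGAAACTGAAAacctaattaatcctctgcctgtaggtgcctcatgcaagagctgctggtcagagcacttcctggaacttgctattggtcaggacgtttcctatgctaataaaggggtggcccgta

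IFIT1 carried 2 matches, the nearer beginning 103 bases before the start, and both read on the reverse strand. IFI44L carried 2 copies 73 and 164 bases before the start, IFI44 carried 1 copy 18 bases before it, and in BST2 a pair of overlapping matches began 130 and 124 bases before it. STAT2, IRF9 and XAF1 had none of these letters in the 250 bases of their entries. A match is a description of the letters and not a measured binding site.

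No gene passed the test. In edgeR's quasi-likelihood test with Benjamini-Hochberg adjustment, 0 of 12877 genes tested (0%) had an adjusted p under 0.05, and the smallest adjusted p rounded to 1. At an unadjusted p under 0.05 stood 104 genes, 0.808% of those tested, of which 54 were higher with spheres (0.419%) and 50 lower (0.388%). A share of 0.05 would be due at that level if no gene differed, so the p-values ran high. DESeq2 called 0 genes (62 at unadjusted p under 0.05) and limma-voom called 0 (147). The groups did not overlap in CPM for 268 genes higher with spheres (2.08%) and 372 lower (2.89%). Standard errors of the log2 fold changes had a median of 0.22. In counts simulated for this comparison over 12561 genes, the test recovered 48 of 66 genes set 4-fold apart. It recovered 20 of 67 set 2-fold apart and 0 of 67 set 1.5-fold apart, with 11 false calls among 79. Differences of 2-fold or less were thus mostly missed in the simulated counts. The simulation drew each gene independently, without deviations shared between libraries of the same number, so its recovery need not hold for the real libraries. All log2 fold changes below are spheres minus stars, with 1 standard error, and none of the genes named passed the adjusted threshold.

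**Figure D1:**
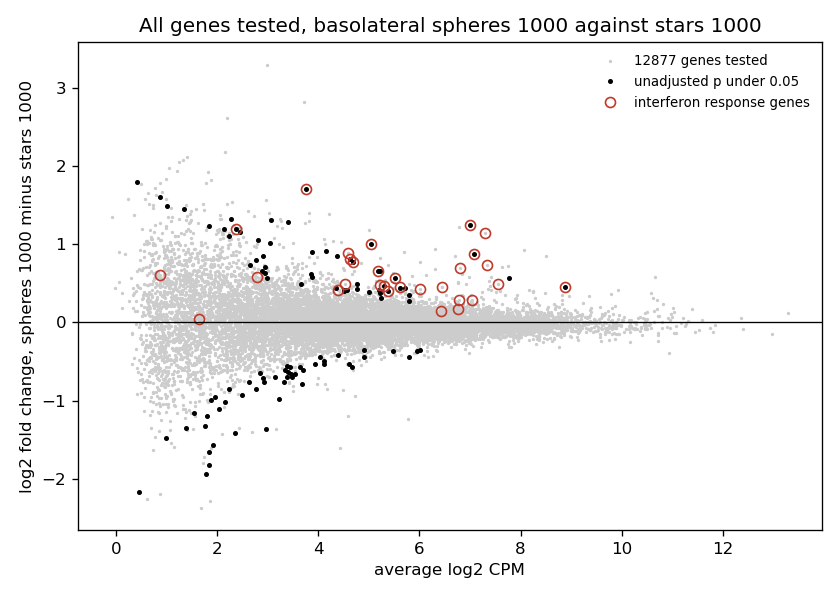
Log2 fold change (spheres 1000 minus stars 1000, vertical axis) against average log2 CPM (horizontal axis) for the 12877 genes tested, as grey points. Black points are the 104 genes at unadjusted p under 0.05, and red rings are the 30 interferon response genes, all of which lie above 0.

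The interferon response list had 30 members, all tested, and all 30 had a level higher with spheres than with stars, beside 49.5% of all genes tested. The median log2 fold change of the list was 0.53, beside -0.0017 over all genes. At an unadjusted p under 0.05 stood 12 of the 30, against 0.419% of all genes in that direction, and in 8 of the 30 the lowest spheres library exceeded the highest stars library, against 2.08% of all genes. None was called. In a fit of all basolateral libraries, which share 1 estimate of the spread, 2 of the 30 were at unadjusted p under 0.05, beside 104 of 14594 genes in that direction. The members are regulated together and are not independent of each other, and the evidence comes from the same 6 libraries for each.

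Of the signalling factors, STAT2 and IRF9 had the smallest standard errors of the list. STAT2, a subunit of ISGF3, stood at 45.6, 43.6 and 47.1 CPM in spheres replicates 1 to 3 and at 35.3, 32.4 and 31.1 CPM in stars replicates 1 to 3. Every spheres library was above every stars library, and the log2 fold change was 0.47 ± 0.14 (unadjusted p = 0.00854). IRF9, the DNA-binding subunit of ISGF3, stood at 47.2, 45.4 and 48.7 CPM with spheres and at 36.6, 32.6 and 37.6 CPM with stars, again without overlap, with a log2 fold change of 0.41 ± 0.14. IRF7, a factor that amplifies interferon production, stood at 41.04, 42.2 and 48.4 CPM with spheres and at 35.3, 18.7 and 29.9 CPM with stars, without overlap (log2 fold change 0.66 ± 0.24). IRF1, which also answers to interferon gamma and NF-kB, had a log2 fold change of 0.15 ± 0.39 and overlapped widely, at 70.1 to 127 CPM with spheres and 46.7 to 113 CPM with stars. USP18, which damps signalling at the receptor, stood at 24.7, 36.3 and 35.8 CPM with spheres and at 25.8, 13.6 and 17.5 CPM with stars (log2 fold change 0.77 ± 0.26), so that spheres replicate 1 alone lay inside the stars range.

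Among the antiviral effectors, MX2, a dynamin-like GTPase that blocks viruses at the nuclear pore, had the widest difference of the list. It stood at 10.5, 23.3 and 28.1 CPM with spheres and at 9.97, 2.98 and 6.53 CPM with stars, and its log2 fold change was 1.70 ± 0.51 (unadjusted p = 0.0114). The groups did not overlap, but spheres replicate 1 and stars replicate 1 lay next to each other. IFIT1, which binds RNA with a foreign 5′ cap and whose promoter is printed above, stood at 116, 215 and 211 CPM with spheres and at 96.4, 41.8 and 89.8 CPM with stars (log2 fold change 1.24 ± 0.38). IFIT1 showed the same order, with spheres replicate 1 nearest to the stars libraries and stars replicate 2 lowest. IFIT3, its binding partner, stood at 111, 133 and 168 CPM with spheres and at 110, 42.6 and 101 CPM with stars (log2 fold change 0.70 ± 0.36), with spheres replicate 1 and stars replicate 1 practically level. IFIT2, another member of the family, stood at 16.9, 37.8 and 39.2 CPM with spheres and at 17.6, 14.6 and 20.7 CPM with stars, and IFIT5 had the smallest difference of the family, 0.42 ± 0.25. IFIT2 overlapped through spheres replicate 1 alone.

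The oligoadenylate synthetases make the second messenger that activates RNase L on sensing double-stranded RNA. OASL, the member without enzyme activity, was low, at 8.10, 6.91 and 5.73 CPM with spheres and at 3.90, 1.19 and 4.02 CPM with stars, and did not overlap (log2 fold change 1.20 ± 0.50). OAS2 stood at 89.9, 257 and 257 CPM with spheres and at 154, 82.2 and 127 CPM with stars. Its 2 higher spheres libraries were above every stars library, while spheres replicate 1 lay below 2 of the 3 stars libraries, and the log2 fold change was 0.73 ± 0.44. OAS3 (0.49 ± 0.31) and OAS1 (0.45 ± 0.23) overlapped too. The cytosolic RNA sensors were close to these, with log2 fold changes of 0.46 ± 0.33 for IFIH1 (MDA5) and 0.28 ± 0.27 for DDX58 (RIG-I).

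IFI44L and IFI44, neighbouring genes on chromosome 1 whose promoters are printed above, are widely used as markers of interferon exposure. IFI44L stood at 123.1, 206 and 194 CPM with spheres and at 129, 66.1 and 89.8 CPM with stars (log2 fold change 0.88 ± 0.28), and spheres replicate 1 lay below stars replicate 1. IFI44 stood at 48.6, 45.4 and 67.6 CPM with spheres and at 42.7, 25.8 and 41.3 CPM with stars, without overlap (0.57 ± 0.25). BST2, the tether that holds budding virions at the cell surface, stood at 34.4, 33.1 and 25.1 CPM with spheres and at 28.8, 10.3 and 11.9 CPM with stars. Here stars replicate 1 lay above spheres replicate 3, and the log2 fold change was 0.88 ± 0.38. XAF1, a gene that favours apoptosis, stood at 24.3, 49.1 and 58.0 CPM with spheres and at 30.1, 12.2 and 23.6 CPM with stars (1.00 ± 0.42). IFI6, a mitochondrial and endoplasmic reticulum protein that limits apoptosis, stood at 117, 351 and 189 CPM with spheres and at 142, 50.7 and 102 CPM with stars (1.14 ± 0.51). In XAF1 and IFI6 alike, spheres replicate 1 lay within the stars range.

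Among the members whose groups overlapped widely were 2 that the apical layer also expresses at higher level. RSAD2 (viperin, which makes a chain-terminating nucleotide) stood at 6.75, 1.45 and 0.254 CPM with spheres and at 6.07, 1.59 and 1.13 CPM with stars, with a log2 fold change of 0.04 ± 1.07. MX1, the cytoplasmic relative of MX2, stood at 15.5, 6.54 and 1.78 CPM with spheres and at 6.93, 3.57 and 5.65 CPM with stars (0.58 ± 0.69). In both genes replicate 1 was the highest spheres library. Untreated apical cultures held 48.5 CPM of MX1 and 15.7 CPM of RSAD2 on average, and untreated basolateral cultures 3.82 and 2.15 CPM. ISG20, an exonuclease, had a log2 fold change of 0.18 ± 0.28, and CXCL10, an interferon-induced chemokine, was at 0.794 to 2.97 CPM in the 6 libraries.

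**Figure D2:**
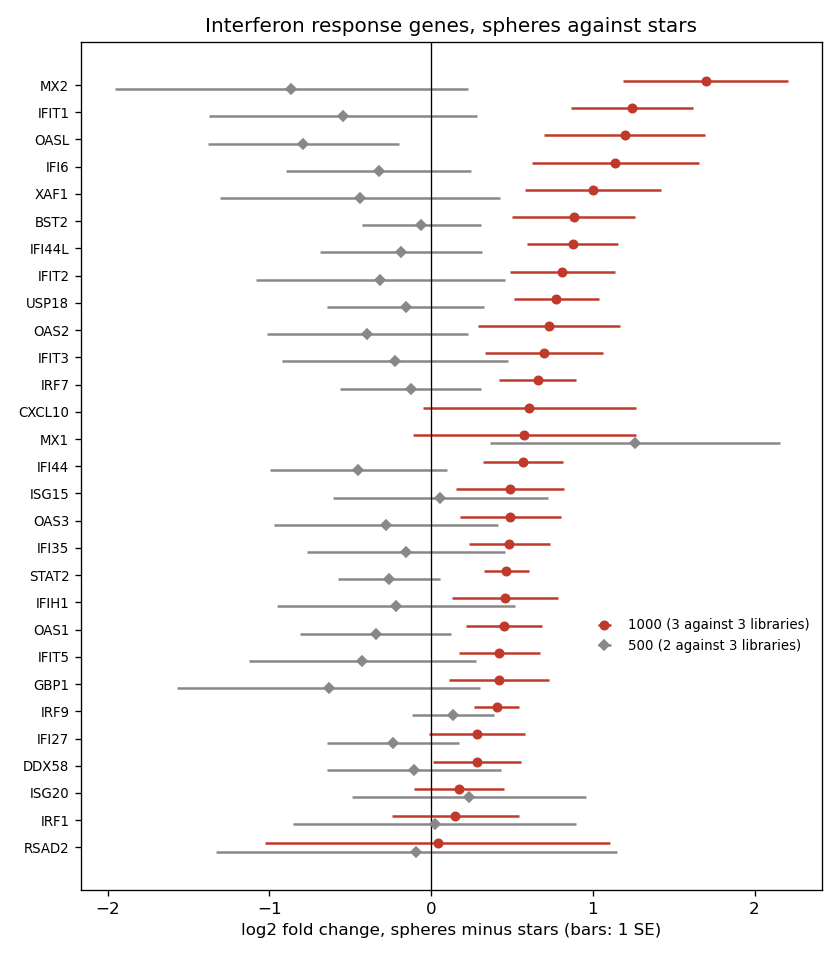
Log2 fold change, spheres minus stars, of 29 of the 30 interferon response genes (1 per line) with 1 standard error. Red circles are the number 1000 and grey diamonds the number 500; at 1000 all 29 drawn lie above 0, from 0.04 for RSAD2 to 1.70 for MX2, and at 500 a majority, 23 of 28, lie below 0.

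Transcripts of the interferon genes that were looked up were nearly absent from the counts at 24 h, the only time sampled. Of the IFNA genes, IFNA1 alone was looked up. Of 8 interferon genes looked up after the list had been described, 7 (IFNB1, IFNA1, IFNK, IFNG, IFNL1, IFNL2 and IFNL3) had 0 counts in all 6 libraries, which allows up to 0.298 to 1.09 CPM a library, and IFNE had 14 counts in all. The receptor and kinase genes were present in both groups, and none reached an unadjusted p under 0.05. IFNAR1 stood at 106, 122.9 and 157 CPM with spheres and at 109, 120 and 172 CPM with stars (log2 fold change -0.06 ± 0.22). IFNAR2 (0.05 ± 0.20), JAK1 (-0.10 ± 0.17) and TYK2 (-0.09 ± 0.18) were also within 1 standard error of 0, and of the 7 such genes tested 4 were higher with spheres.

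The position of single libraries can be read from the mean log2 CPM of the 30 members. It was 5.42, 5.67 and 5.74 in spheres 1000 replicates 1 to 3, and 5.39, 4.46 and 5.19 in stars 1000 replicates 1 to 3. All 3 spheres libraries lay above all 3 stars libraries, with replicate 1 of each almost level and stars replicate 2 the lowest of the 20 basolateral libraries. In untreated cultures the mean was 4.93, 4.54 and 5.28. Among the other basolateral groups it ran from 4.63 to 6.22, and the 2 highest libraries of all, rods 500 replicate 3 and stars 500 replicate 3, both at 6.22, belonged to neither group of the comparison. The 6 libraries of the comparison together ran from 4.46 to 5.74. The 3 stars 500 libraries, the group with the widest range, alone ran further, from 4.63 to 6.22. Without stars replicate 2 the median log2 fold change of the list was 0.35, with 27 of 30 members higher and 4 at unadjusted p under 0.05, beside 66 of 13301 genes in that direction. Without spheres replicate 1 it was 0.66, with 28 of 30 higher and 18 at unadjusted p under 0.05, beside 121 of 13277 genes.

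**Figure D3:**
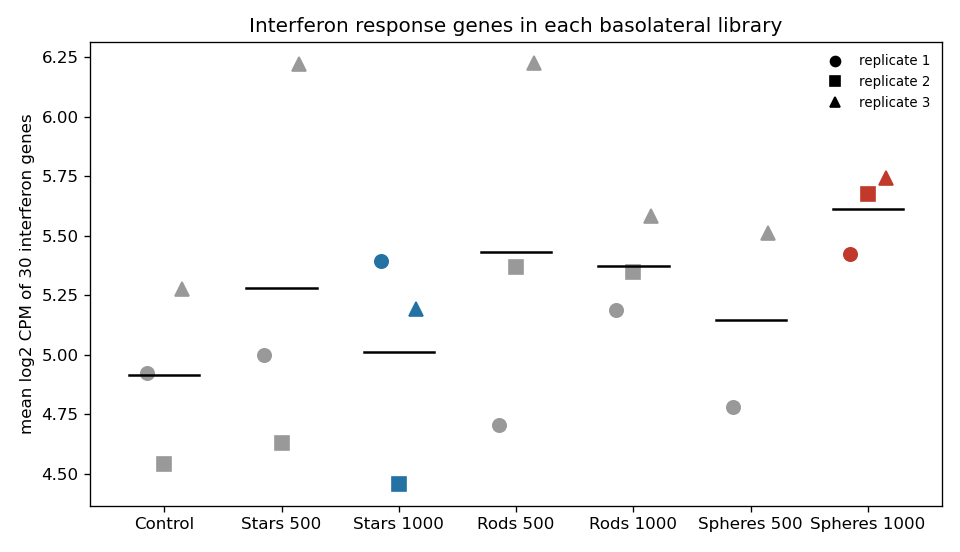
Mean log2 CPM of the 30 interferon response genes (vertical axis) in each of the 20 basolateral libraries, by group, with the symbol giving the replicate number and the bar the group mean. Spheres 1000 (red, 5.42 to 5.74) lie above stars 1000 (blue, 4.46 to 5.39); the other groups are grey and reach from 4.54 to 6.22.

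Set beside the untreated cultures, which both contrasts share, the list had a median log2 fold change of 0.67 for spheres 1000 and of 0.05 for stars 1000. With spheres 30 of 30 members stood above control (50.6% of all genes), 10 of them at unadjusted p under 0.05 (0.846% of 13476 genes in that direction), and with stars 17 of 30 did (50.5%), 0 of them at that level (0.43%). IFIT1 was 73.5, 42.2 and 123.1 CPM in untreated replicates 1 to 3, MX2 was 6.79, 3.85 and 13.5 CPM, and STAT2 was 36.9, 34.2 and 38.5 CPM. For IFIT1 the log2 fold change against control was 1.16 with spheres and -0.09 with stars, and for STAT2 it was 0.31 and -0.16. The rise over control with spheres was not particular to this list. Of 26 NF-kB cytokine genes tested, 26 stood above control with spheres (median 0.65, 4 at unadjusted p under 0.05). With stars 20 of the 26 did (median 0.19, 0 at that level). Of 21 endothelial identity genes, 18 stood below control with spheres (median -0.18, 4 at unadjusted p under 0.05, beside 157 of 13476 genes in that direction). Neither contrast called any gene (0% of 13476 for each, with 271 and 108 genes at unadjusted p under 0.05).

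At number 500 the same list stood mostly lower with spheres. With 2 spheres and 3 stars libraries, 0 of 13116 genes were called (0%; 138 at unadjusted p under 0.05), and 5 of 29 interferon members tested stood higher with spheres, beside 50.5% of all genes, with a median log2 fold change of -0.22 and 0 at unadjusted p under 0.05 in that direction (0.45% of all genes). With a block for the replicate number, which leaves the 2 numbers both groups share, 72 of 13116 genes were called at 500. IFIT1, MX2, OAS2, OAS3, IFI6, IFI44 and IFIT5 were among them, each lower with spheres. Epithelial and A549 markers were called too, FGA, FGB, FGG, MUC5AC, MUC5B, ALDH3A1 and AKR1C1, each higher with spheres. Without the block all 18 epithelial and A549 markers tested at 500 stood higher with spheres, with a median of 0.98 and 0 at unadjusted p under 0.05. Without the block MX2 had a log2 fold change of -0.86 ± 1.09 there and IFIT1 one of -0.54 ± 0.83. The difference between the shape contrasts at 1000 and at 500 was tested as an interaction, and 0 of 13980 genes were called (0%; 114 at unadjusted p under 0.05). For 28 of the 30 members the contrast was larger at 1000, beside 48.6% of all genes, with a median of 0.82 on the log2 scale, and OASL alone reached an unadjusted p under 0.05 (1.99 ± 0.80, unadjusted p = 0.0302), against 0.515% of all genes in that direction. In the apical layer, whose particle-exposed libraries enter no other comparison here, spheres 1000 against stars 1000 also called 0 of 13913 genes (0%; 532 at unadjusted p under 0.05), and 29 of the 30 members stood higher with spheres, beside 49.6% of all genes, with a median of 0.56 and 14 at unadjusted p under 0.05 against 2.47% of all genes in that direction. The apical contrast had 25 of 26 NF-kB cytokine genes higher with spheres (median 0.52, 10 at unadjusted p under 0.05) and all 13 mitochondrially encoded genes (median 0.79, 13 at that level). Apical and basolateral libraries may come from the same cultures, which the labels do not state.

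Genes outside the list with the smallest unadjusted p included others known to answer to interferon. LGALS3BP, a secreted galectin-binding glycoprotein on chromosome 17 (78971238 to 78980109, minus strand, GRCh38), stood at 46.2, 45.1 and 44.7 CPM with spheres and at 34.5, 23.4 and 28.8 CPM with stars. The groups were apart in all libraries and the spheres libraries varied little (log2 fold change 0.65 ± 0.17, unadjusted p = 0.00475). Unlike most list members, LGALS3BP was higher with spheres at number 500 too (0.46 ± 0.19), and in the apical layer its log2 fold change at 1000 was 0.02. Untreated apical cultures held 225 CPM of it on average, against 33.3 CPM in untreated basolateral cultures. HERC5, the ligase that attaches ISG15 to proteins, stood at 7.56, 5.09 and 6.87 CPM with spheres and at 3.90, 1.59 and 2.51 CPM with stars (1.33 ± 0.43). Its average was 21.5 CPM in untreated apical and 4.10 CPM in untreated basolateral cultures. TAP2_1, listed with that suffix at the position of TAP2, a subunit of the peptide transporter of antigen presentation, stood at 53.9, 63.6 and 63.6 CPM with spheres and at 48.3, 41.8 and 43.5 CPM with stars (0.44 ± 0.14). That region has near-identical copies on alternative haplotypes, so its count is uncertain. MRPS18C, a protein of the mitochondrial ribosome, had 27.3, 14.5 and 13.997 CPM with spheres and 10.6, 10.2 and 9.42 CPM with stars (0.89 ± 0.29); replicate 1 held the highest value. TVP23C-CDRT4 had the smallest p of all (log2 fold change 1.305 ± 0.28, unadjusted p = 0.00124), but this readthrough gene overlaps CDRT4, which stood lower with spheres (-1.57 ± 0.45), so how the reads were split between them is uncertain. TCEA1P2, a processed pseudogene (0.85 ± 0.23), can share reads with its parent gene.

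Genes lower with spheres at the smallest p were mostly low in level. PRTFDC1, a relative of a purine salvage enzyme, stood at 6.88, 6.54 and 7.76 CPM with spheres and at 10.6, 14.5 and 10.8 CPM with stars (-0.76 ± 0.24). ITGA11, a subunit of a collagen-binding integrin, stood at 1.22, 3.63 and 3.05 CPM with spheres and at 5.42, 5.96 and 8.92 CPM with stars (-1.41 ± 0.48). CERS1, a ceramide synthase, stood at 1.62, 1.45 and 1.40 CPM with spheres and at 2.17, 5.56 and 6.28 CPM with stars (-1.65 ± 0.53). For each of these genes the groups did not overlap, and the spheres values rest on few reads. A processed transcript of chromosome 1 at 1702736 to 1737688 (-1.36 ± 0.31), RP11-156P1.3 (-0.98 ± 0.28), RP11-1319K7.1 (-1.82 ± 0.50), ZMYM6NB (-0.93 ± 0.32), CTD-2116N17.1 (-1.94 ± 0.63) and the antisense gene LMCD1-AS1 (-2.17 ± 0.75) completed the 10 lower genes by p together with CDRT4. Several of these are noncoding, antisense or pseudogene annotations, whose reads can belong to an overlapping gene or a copy.

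NF-kB driven cytokine genes also stood mostly higher with spheres, and their median turned when spheres replicate 1 was left out. Of 27 members 25 were tested, 23 of them higher with spheres, with a median log2 fold change of 0.50, 0 at unadjusted p under 0.05 and 0 without overlap. Without spheres replicate 1 the median was -0.02, with 13 of 26 members higher, and without stars replicate 2 it was 0.15, with 17 of 26 higher. With a block for the replicate number 21 of 25 were higher and 4 were at unadjusted p under 0.05, beside 95 of 12877 genes, and when number 3 was left out of that fit IL8 and CXCL1 were called (edgeR, adjusted p = 0.0299 and 0.041). IL8, the neutrophil chemokine now named CXCL8, stood at 626, 185 and 236 CPM with spheres and at 266, 66.7 and 219 CPM with stars (0.93 ± 0.70). CXCL5, a related chemokine, stood at 1135, 237 and 31.3 CPM with spheres and at 402, 162 and 217 CPM with stars (0.85 ± 1.19), so that the spheres group held both the highest and the lowest library. CCL20, which attracts dendritic and T cells, stood at 12.1, 1.82 and 1.27 CPM with spheres and at 1.3, 1.79 and 1.26 CPM with stars (1.82 ± 0.85). CCL2, the monocyte chemokine made by the basolateral layer, stood at 575, 375 and 881 CPM with spheres and at 548, 257 and 889 CPM with stars (0.11 ± 0.53), with the groups interleaved.

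Of the 6 libraries, spheres replicate 1 also held the highest sums of markers of the other layer. The summed level of 25 alveolar epithelial and A549 markers, 23 of them with reads, was 5204, 2203 and 770 CPM with spheres and 3091, 2180 and 1585 CPM with stars, and 4236, 2324 and 793 CPM in untreated cultures. SFTPD and NKX2-1 were at 0 in all 6 libraries. In each of these groups replicate 1 was highest and replicate 3 lowest. Not every marker kept that order, as KRT7 stood at 225, 236 and 287 CPM in spheres replicates 1 to 3. Whether these transcripts came from the other layer or from the basolateral line itself was not tested. The 20 macrophage and THP1 markers summed to 455, 210 and 100 CPM with spheres and to 288, 186 and 130 CPM with stars, and the 12 mast cell markers to 328, 69.8 and 15.9 CPM against 149, 61.3 and 28.6 CPM; FCER1A and CMA1 were at 0 throughout. The endothelial list summed to 2869, 4147 and 4122 CPM with spheres and to 3575, 3968 and 4286 CPM with stars. No marker list separated the groups (exact permutation test, 2-sided, lowest p of the lists 0.4, where 3 against 3 libraries cannot give a p under 0.1). For these bulk samples fewer cells of a type and less RNA per cell cannot be told apart. Untreated apical cultures held 4513 CPM of CXCL5 and 1129 CPM of IL8 on average. Spheres replicate 1, with the highest epithelial sum, had the lowest interferon mean of the 3 spheres libraries (5.42). Among the 3 stars libraries the order was the other way, and replicate 1 had both the highest epithelial sum and the highest interferon mean (5.39). The part of cells of the other layer in the cytokine and interferon differences was not tested.

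**Figure D4:**
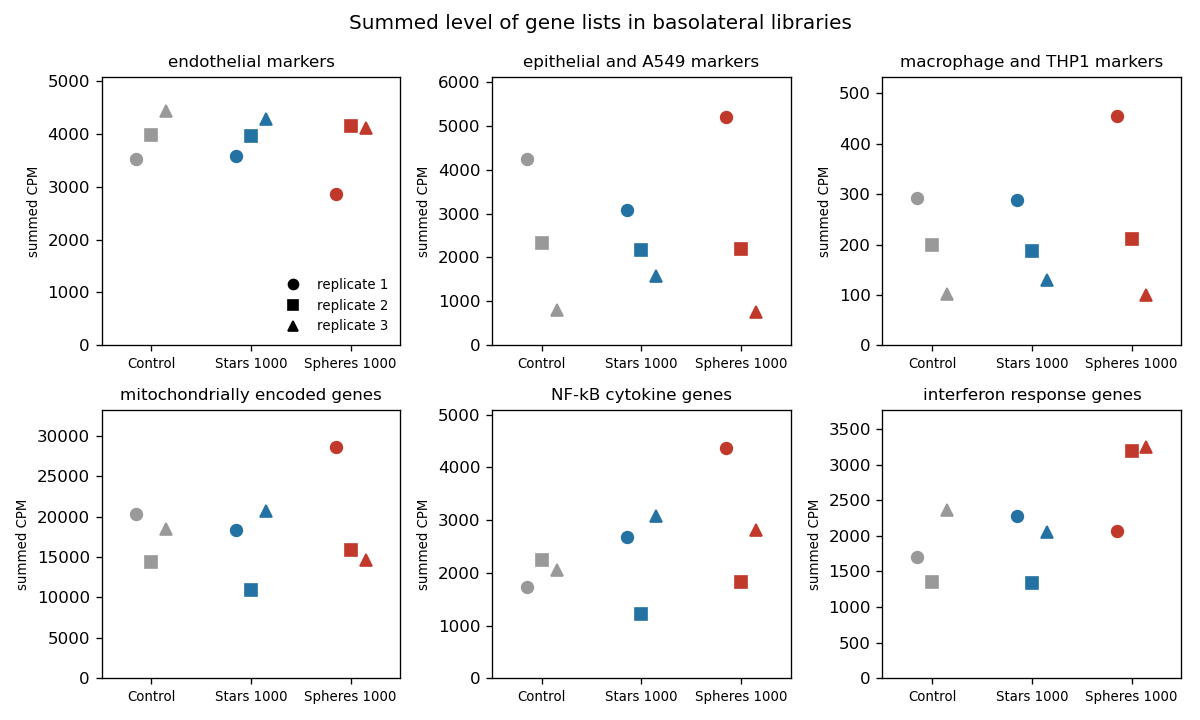
Summed CPM of 6 gene lists (1 panel each, axis from 0) in the 3 untreated, 3 stars 1000 and 3 spheres 1000 basolateral libraries, with the symbol giving the replicate number. Spheres replicate 1 is the highest library for epithelial, macrophage, mitochondrial and NF-kB genes and the lowest for endothelial markers, while interferon genes are highest in spheres replicates 2 and 3.

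The mitochondrially encoded genes had a median that turned without the same library. All 13 stood higher with spheres, with a median log2 fold change of 0.35 and 0 at unadjusted p under 0.05. MT-CO2, a subunit of cytochrome oxidase, stood at 3642, 1018 and 1141 CPM with spheres and at 1534, 904 and 1431 CPM with stars (0.58 ± 0.55), and MT-CYB, the cytochrome of complex III, at 1575, 712 and 706 CPM and at 854, 558 and 906 CPM (0.37 ± 0.36). Without spheres replicate 1 the median was -0.14 and 1 of 13 stood higher, and without stars replicate 2 it was 0.11 and 10 of 13 did. With all 6 libraries and a block for the replicate number, 13 of 13 stood higher (median 0.28, 0 at unadjusted p under 0.05). The 24 nuclear genes of oxidative phosphorylation that were tested had a median of 0.03, and among them SDHC, a subunit of succinate dehydrogenase, was lower with spheres without overlap, at 11.5, 7.996 and 8.78 CPM against 13.2, 12.6 and 11.8 CPM (-0.40 ± 0.23).

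Lists of endothelial functions had medians near 0, from -0.13 to 0.01. In all but the leukocyte adhesion list, a smaller share of members stood higher with spheres than the 49.5% of all genes. Of 21 endothelial identity genes tested 5 stood higher and 16 lower with spheres, with a median log2 fold change of -0.06 and 0 at unadjusted p under 0.05. With a block for the replicate number 18 stood lower (median -0.09), 1 of them at unadjusted p under 0.05, beside 6962 and 95 of 12877 genes. ESAM, an adhesion molecule of endothelial junctions, was the 1 member of 21 without overlap, beside 2.89% of all genes in that direction. It stood at 54.0, 77.8 and 71.8 CPM with spheres and at 83.4, 79.2 and 82.8 CPM with stars (-0.28 ± 0.15). That 1 member does not set the list apart from all genes. The same shares, 2.08% higher and 2.89% lower, stand beside single genes of other lists named as without overlap. LYVE1, a hyaluronan receptor, stood at 16.5, 32.7 and 21.6 CPM with spheres and at 26.7, 41.2 and 28.3 CPM with stars (-0.48 ± 0.27). Within each replicate number spheres were lower for LYVE1, though the groups overlapped. Vascular tone genes had the lowest median of the lists with at least 3 genes tested, -0.13, with 4 of 17 higher. With the block 2 of 17 were higher (median -0.15). CAV1, the coat protein of caveolae, stood at 945 to 1187 CPM with spheres and at 1017 to 1472 CPM with stars (-0.25 ± 0.18). Leukocyte adhesion genes (6 of 11 higher, median 0.01), angiogenesis genes (8 of 19, -0.04) and tight and adherens junction genes (4 of 16, -0.02) had 0 members at unadjusted p under 0.05.

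Lists linked to particle uptake and stress had medians from -0.07 to 0.09, beside -0.0017 over all genes, while their shares of members higher with spheres lay on either side of the 49.5% of all genes. Of 29 endocytosis genes 8 stood higher with spheres (median -0.07), and of 28 lysosome genes tested 10 did (-0.06). ATP6V0D1, a subunit of the proton pump that acidifies lysosomes, was lower without overlap, at 28.1, 25.8 and 23.2 CPM with spheres against 30.3, 29.3 and 33.2 CPM with stars (-0.27 ± 0.16). Oxidative stress genes under NRF2 (20 of 27 higher, median 0.09), heat shock genes (12 of 14, 0.05), unfolded protein response genes (11 of 23, -0.02), metallothionein and zinc genes (7 of 11, 0.03) and p53 targets (7 of 22, -0.03) had 0 members at unadjusted p under 0.05. With a block for the replicate number, 13 of 27 NRF2 genes stood higher, with a median of -0.01. In the cell death and inflammasome list 14 of 22 stood higher (median 0.04), among them GSDMD, the pore-forming gasdermin, at 32.3, 42.5 and 33.6 CPM with spheres and 26.9, 24.7 and 30.3 CPM with stars (0.39 ± 0.17, unadjusted p = 0.049). CASP8, an initiator caspase, stood at 74.2, 78.5 and 74.6 CPM with spheres and at 67.0, 67.0 and 68.5 CPM with stars (0.16 ± 0.11). Both genes separated the groups by a small step. FOS, an immediate early factor, stood at 9.99, 4.36 and 3.56 CPM with spheres and at 2.60, 2.78 and 3.02 CPM with stars (1.10 ± 0.47), with spheres replicate 1 far above the other libraries.

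Matrix and metabolic lists had medians near 0 too. Basement membrane genes had a median of -0.07 (7 of 21 higher), with FBN1, the microfibril protein fibrillin, at 49.0, 50.9 and 94.3 CPM with spheres and 63.3, 84.0 and 115 CPM with stars (-0.43 ± 0.33). Cholesterol synthesis genes had a median of 0.01 (14 of 24 higher), with SREBF2, the factor that controls them, at 69.9, 70.1 and 70.0 CPM with spheres and at 78.2, 75.7 and 80.0 CPM with stars (-0.16 ± 0.11). SREBF2 did not overlap between the groups, and its 3 spheres libraries were nearly equal. Proliferation genes (22 of 32 higher, median 0.08) and ribosomal protein genes (10 of 25, -0.02) had 0 members at unadjusted p under 0.05.

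**Figure D5:**
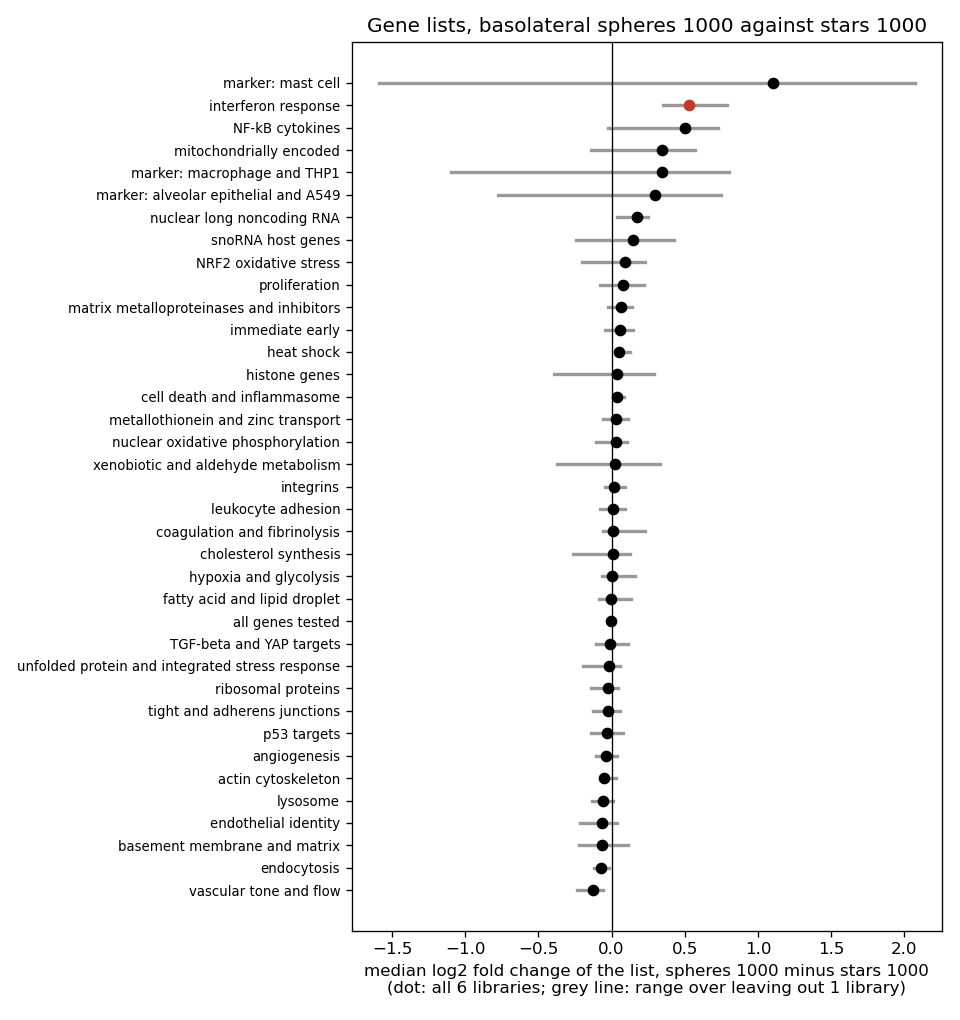
Median log2 fold change (spheres 1000 minus stars 1000, horizontal axis) of each list with at least 3 genes tested, with all 6 libraries (dot) and its range when 1 library is left out (grey line). The interferon list (red) runs from 0.35 to 0.79, whereas the ranges of the NF-kB, mitochondrial, epithelial, macrophage and mast cell lists cross 0.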

How the data were processed

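The authors deposited whole-number read counts per gene for 57773 genes, which are not normalized. Per the labels' protocols, total RNA from a QIAGEN purification went into SMARTer Stranded libraries. The submitters' processing notes name the build GRCh38.p13; aligner, counter and strand setting: not given in the sources used here. Of counts from 1 to 20, 68.9 to 77.2% were even in the 6 libraries, which can mean fewer independent fragments than counts; this was not tested.

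The main test was edgeR's (4.0.16, under R 4.3.3) robust quasi-likelihood F test with TMM scaling, filterByExpr and a group term only, with DESeq2 1.42.0 and limma-voom (limma 3.58.1) as alternatives, and a gene counted as called below 0.05 after Benjamini-Hochberg adjustment. The standard error of a log2 fold change is its size divided by the square root of F. CPM are counts scaled to a library total of 1e+06. List means use log2 CPM with a prior count of 2. The design text calls the replicates biological, and p-values measure the spread between these libraries. The test was checked on simulated data. Of 810 list genes 809 were found, 22 by identifier under an older symbol. Positions come from GENCODE 29, which held 90.6% of the identifiers. Named genes are 10 per direction with the lowest p, the 3 lowest-p members per list, and the top markers by level; the text adds list members, interferon members among them, and the interferon ligand, receptor and kinase genes, after their values were seen. Members, lists and tests were chosen with earlier results of these data known. No library was a copy of another. The values of 1 interferon list member are not reported here; it is counted in the list's summaries and left out of the plot of members.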

Additional observations from a re-analysis of the deposited data

How the results depend on the processing

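The count of 0 called genes between spheres 1000 and stars 1000 held under other scalings, other filters, DESeq2, limma-voom, all basolateral libraries in 1 fit, and leaving out each library in turn (83 to 409 genes at unadjusted p under 0.05). With a block for the replicate number it was 0 as well (190 genes at unadjusted p under 0.05), but 7 genes were called when number 1 was also left out of both groups (IFI44L, MX2, OAS2, XAF1, PARP9 and HELZ2 higher with spheres, EEF1A1P5 lower) and 2 (IL8 and CXCL1, both higher) when number 3 was. Such fits have 2 libraries a group, and the causes were not tested. Same-numbered libraries deviated together with correlations of 0.428, 0.0346 and 0.368 for numbers 1 to 3 over all genes tested, and of 0.526, 0.102 and 0.438 over the 9729 genes above a log2 CPM of 3. Since 1 correlation over all genes was under 0.1, the numbers were not taken as pairs; with the higher genes they would have been, and both fits were already known when this was decided. The block left the interferon list at a median of 0.50 with 29 of 30 members higher and 9 at unadjusted p under 0.05, beside 5915 and 95 of 12877 genes. Left-out libraries moved that median between 0.35 and 0.79, and the number at unadjusted p under 0.05 between 4 (without stars replicate 2) and 18 (without spheres replicate 1); with all basolateral libraries sharing 1 spread it was 2, beside 104 of 14594 genes.

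For spheres 500 against stars 500 the block, resting on the 2 shared numbers, called 72 of 13116 genes in place of 0. Among them IFIT1, MX2, OAS2, OAS3, IFI6, IFI44 and IFIT5 were lower with spheres. The epithelial and A549 markers FGA, FGB, FGG, MUC5AC, MUC5B, ALDH3A1 and AKR1C1 were among them too, higher with spheres. DESeq2 and the fit with no filter on low counts called 1 each, and the cause was not tested. The interaction stayed at 0 under the alternatives run.

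Some directions turned. With single libraries left out, log2 fold changes ran from -1.99 to 1.06 for RSAD2, -0.49 to 1.09 for MX1, -1.01 to 1.40 for CXCL5, -0.27 (without spheres replicate 3) to 0.63 for CCL2, -0.26 to 0.91 for MT-CO2 and -0.13 to 0.58 for MT-CYB, each other than CCL2 at its lowest without spheres replicate 1. RSAD2 was -0.46 with the block, -0.38 in limma-voom, -0.53 and -0.041 in DESeq2 and limma-voom with the block, -0.35 with all basolateral libraries and the block, and -1.01 and -0.62 with the block leaving out numbers 1 and 2. CXCL5 was -0.085 with the block, -0.25 in limma-voom, -0.097 and -0.12 in DESeq2 and limma-voom with the block, and -1.06 and -0.57 with the block leaving out numbers 1 and 2. With the block leaving out number 1, MX1 was -0.39, MT-CO2 -0.079 and MT-CYB -0.0054, and leaving out number 2 MX1 was -0.13. Differences in summed marker level ran, over single libraries left out, from -447.2 to 191.8 CPM (endothelial), -799 to 1418 (epithelial), -46.3 to 131.2 (macrophage), -36.83 to 119.2 (mast cell) and -1.675 to 7.467 (dendritic), each turning without spheres replicate 1. Depth limits genes near the level of 3 counts, 1.09 CPM in spheres replicate 2.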
